A study of Mus musculus with 12 samples.

Results

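The genes described here are the TCF/LEF transcription factors Tcf7, Lef1, Tcf7l1 and Tcf7l2, their coactivator gene Ctnnb1, the corepressor genes Tle1, Tle3 and Tle4, and the Wnt feedback gene Axin2, in CD8 T cells from WT mice and from mice lacking TCF-1 in T cells. They were taken by symbol, and all 9 were found among the 35855 genes of the files. The study asked how loss of TCF-1 changes donor CD8 T cells in a mouse model of allogeneic transplantation, and the comparisons below ask how this group of genes differed by genotype and by stage. The 4 groups hold 3 RNA-seq libraries each: WT and TCF-1 cKO (labelled TCF-7 cKO) CD8 T cells from spleen before transplant, and the same 2 genotypes at day 7 after transplant. All donor cells were of C57BL/6 background. The TCF-1 cKO mice carried a floxed Tcf7 and a Cre driven by the CD4 promoter, which acts from the double-positive stage of the thymus, so that CD4 T cells of the donor lacked TCF-1 as well. Day 7 cells were donor CD8 T cells sorted from the spleens of irradiated BALB/c recipients that had also received WT bone marrow depleted of T cells. The age of the animals was not given in the labels, and nothing in the labels ties a library to an animal, so the p-values measure the spread between libraries.

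Factors of the TCF/LEF family bind DNA through a high mobility group box and, on their own, repress or mark their targets together with TLE (Groucho) corepressors. When β-catenin, the product of Ctnnb1, escapes its destruction complex after a Wnt signal, it enters the nucleus, replaces TLE proteins on the factor and activates transcription, and Axin2 is a widely used target that feeds back on the destruction complex. In T cells TCF-1 (Tcf7) and LEF-1 (Lef1) are the main members, act in thymic development, mark naive and memory-like CD8 T cells and decline as cells become effectors. Tcf7l1 and Tcf7l2 are better known from stem cells, gut and other tissues.

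The start regions of Tcf7 and Lef1 are shown because the main transcripts of both genes begin near them, and because the Lef1 starts make proteins of different length. RefSeq promoters (GRCm38.p6) were available for 16 starts of the 9 genes. The 250 bases before each start are written 5′ to 3′ on the strand of the gene, with each CpG in capitals.

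Tcf7, chr11:52282596-52282845, minus strand: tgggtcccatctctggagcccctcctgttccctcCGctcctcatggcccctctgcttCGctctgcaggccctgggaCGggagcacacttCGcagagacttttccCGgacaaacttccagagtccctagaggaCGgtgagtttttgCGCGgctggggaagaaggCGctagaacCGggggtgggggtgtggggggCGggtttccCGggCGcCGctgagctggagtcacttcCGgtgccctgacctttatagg

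Lef1 upstream start, chr3:131110073-131110322, plus strand: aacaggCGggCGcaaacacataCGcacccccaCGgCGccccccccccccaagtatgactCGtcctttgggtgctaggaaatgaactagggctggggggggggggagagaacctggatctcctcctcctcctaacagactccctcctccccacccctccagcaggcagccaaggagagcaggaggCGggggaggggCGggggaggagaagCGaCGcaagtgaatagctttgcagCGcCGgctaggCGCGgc

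Lef1 downstream start, chr3:131112541-131112790, plus strand: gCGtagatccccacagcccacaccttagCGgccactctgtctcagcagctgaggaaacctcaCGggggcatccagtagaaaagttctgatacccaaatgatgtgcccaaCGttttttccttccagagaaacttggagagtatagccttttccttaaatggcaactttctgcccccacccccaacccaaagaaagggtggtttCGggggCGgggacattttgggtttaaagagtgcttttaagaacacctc

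The Tcf7 window holds 15 CpGs at 64.4% GC, the upstream Lef1 window 14 at 66.4% and the downstream Lef1 window 6 at 50.8%, where the median of all promoters is 6 CpGs and 52.4%. The TCF/LEF core CTTTGA, searched on both strands, was present before 1 of the 16 starts, another Lef1 start at chr3:131156044-131156293 with 2 matches, and the longer CTTTGAT, which contains that core, was present before none. Of all 32851 promoters, 13.8% hold CTTTGA and 3.21% hold CTTTGAT in the same window.

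Library totals were 18184814 to 32657005 estimated counts, except for the 3 TCF-1 cKO pre-transplant libraries at 4520270 to 9577076, where 3 counts correspond to 0.313 to 0.664 CPM (counts per 1000000 counts of the library). The pre-transplant libraries, although labelled as sorted CD8 T cells, held more B cell than CD8 T cell transcripts. Summed over 8 B cell markers they reached 9684 to 17526 CPM, against 1330 to 1434 CPM over 6 CD8 T cell markers in WT and 629 to 690 CPM in TCF-1 cKO libraries, while 7 erythroid markers reached 4440 to 26359 CPM and 9 myeloid markers 1528 to 3574 CPM. At day 7 the CD8 T cell markers stood above the B cell, myeloid and erythroid ones, at 3524 to 5445 CPM. B cell markers had 235 to 475 CPM and myeloid markers 65.2 to 479 CPM. Erythroid markers had 204 to 1190 CPM in WT and 216 to 552 CPM in TCF-1 cKO libraries. No marker of these lists was at 0 in any group. Cd4 lay between 49.3 and 142 CPM before transplant and between 0.796 and 4.30 CPM at day 7. The library of TCF-1 cKO day 7 replicate 2, which 1 label calls CD4 T cells, held 1.41 CPM of Cd4 and 431 CPM of Cd8a and was kept. In such bulk RNA, fewer T cells in a library and less of a transcript in each T cell cannot be told apart, and the part of the other cell types in the results below was not tested.

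Tcf7 (ENSMUSG00000000782, chromosome 11, 52252371 to 52283014 on the minus strand of GRCm38), the gene deleted in the TCF-1 cKO, was measured in every library. In TPM, a level scaled for transcript length and library depth, it stood at 66.9, 49.7 and 87.1 in WT and at 22.1, 31.7 and 38.6 in TCF-1 cKO pre-transplant libraries. All 3 TCF-1 cKO libraries were below all 3 WT libraries, with a mean of 30.8 ± 8.32 against 67.9 ± 18.7 (SD, n = 3). At day 7 the WT libraries had 6.55, 4.69 and 2.23 TPM and the TCF-1 cKO libraries 2.79, 2.97 and 2.84 TPM. The library labelled WT day 7 replicate 3 was thus below all 3 TCF-1 cKO libraries, and the groups overlapped. Per 100 counts of Cd3d, Cd3e and Cd3g together, Tcf7 of that library was 0.306, within the TCF-1 cKO range of 0.239 to 0.333. This depended on the chain. Per 100 counts of Cd3e alone, Tcf7 was 1.51 to 3.50 in the WT and 7.56 to 9.15 in the TCF-1 cKO day 7 libraries, without overlap. Against Cd3d or Cd3g alone the genotypes overlapped. Tcf7 alone does not settle the label of that library, which was not tested.

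The files separate 2 Tcf7 transcripts. Tcf7-201 (10 exons, 2471 bases) held 88.5% or more of the Tcf7 TPM in each library, with 66.3, 44.0 and 86.9 TPM in WT and 22.1, 31.7 and 38.1 TPM in TCF-1 cKO libraries before transplant. Tcf7-202 begins further upstream and had 0.615, 5.73 and 0.231 TPM in WT pre-transplant libraries, so that only replicate 2 rose above 1 TPM. It was listed at 0 in 2 of the 3 TCF-1 cKO pre-transplant libraries, with 0.481 TPM in replicate 3, and at day 7 only TCF-1 cKO replicate 3 had any, at 0.0601 TPM. Both transcripts share all 9 coding segments (909 coding bases), so neither separates a product of the deleted allele from the normal one. The deleted exon is not named in the sources used here, and a count over the whole gene cannot show whether the reads that remain in TCF-1 cKO libraries come from an allele without it.

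**Figure D1:**
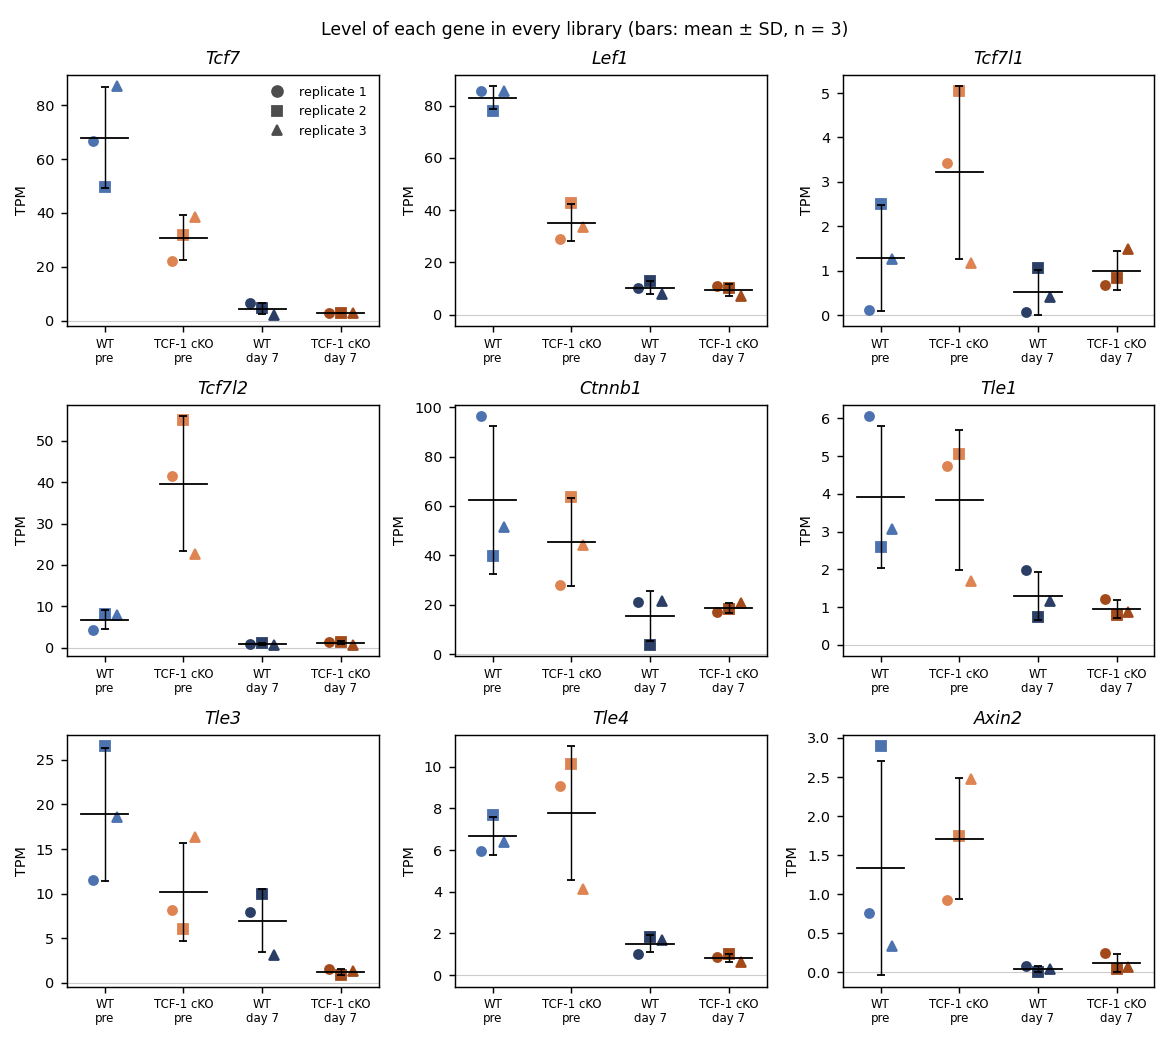
Level of each of the 9 genes in TPM (vertical axes, linear, a scale per gene) in the 4 groups of 3 libraries; symbols are the replicates and the black lines the mean ± SD. Tcf7 and Lef1 are highest in WT pre-transplant libraries (means of 67.9 and 83.1 TPM) and below 14 TPM in every day 7 library, and Tcf7l2 stands out in TCF-1 cKO pre-transplant libraries (22.6 to 55.0 TPM).

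Per length, Lef1, Tcf7 and Ctnnb1 were the most abundant of the 9 genes in WT pre-transplant libraries, at 83.1 ± 4.47, 67.9 ± 18.7 and 62.4 ± 29.9 TPM, and neighbours in this order overlapped. Tle3 followed at 18.9 ± 7.48 TPM, apart from Ctnnb1 above it and from Tcf7l2 below it. Tcf7l2, Tle4, Tle1, Axin2 and Tcf7l1 came next at means of 6.78 down to 1.29 TPM, each overlapping the next. In TCF-1 cKO pre-transplant libraries Ctnnb1, Tcf7l2, Lef1 and Tcf7 formed the top, at means of 45.3, 39.7, 35.2 and 30.8 TPM, and again neighbours overlapped. At day 7 Ctnnb1 came first in both genotypes, at 15.5 ± 10.2 TPM in WT and 18.7 ± 1.89 TPM in TCF-1 cKO libraries, followed by Lef1 at 10.4 ± 2.62 and 9.44 ± 2.13 TPM. Axin2 was last, at 0.0452 and 0.118 TPM.

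Before transplant none of the 9 genes passed the FDR of 0.1 between TCF-1 cKO and WT in edgeR's quasi-likelihood test, and 7 of 18757 genes did (0.0373%). Lef1, Tcf7 and Tle3 were lower and Tcf7l2 was higher in TCF-1 cKO libraries without overlap of the normalized CPM, which is 4 of 9 genes where 29.1% of all genes showed no overlap. The same 4 genes had an unadjusted p below 0.05, as did 17.7% of all genes. The DESeq2 Wald test called 3 of the 9 and 7.74% of all genes, and limma-voom none of the 9.

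Lef1 (ENSMUSG00000027985, chromosome 3, 131110471 to 131224356), which shares much of its work in T cells with Tcf7, had 213, 225 and 273 normalized CPM in WT and 77.0, 85.7 and 86.7 in TCF-1 cKO libraries. The 2 groups were far apart, with a log2 fold change of -1.51 (SE 0.39, adjusted p = 0.199 by edgeR). For Tcf7 the values were 174, 116 and 250 against 48.1, 66.3 and 96.7 normalized CPM and the log2 fold change -1.35 (SE 0.46, adjusted p = 0.223 by edgeR). Without TCF-1 cKO pre-transplant replicate 3 both passed, Lef1 at -1.70 (adjusted p = 0.0229) and Tcf7 at -1.81 (adjusted p = 0.0415). The edgeR calls turned on that library, without which 2738 genes in all passed, and the calls turned on the tool as well. With all libraries kept, DESeq2 called Lef1 (adjusted p = 0.0163) and Tcf7 (adjusted p = 0.0896). The unfiltered edgeR fit called Lef1 (adjusted p = 0.0826) but not Tcf7 (adjusted p = 0.128), and limma-voom called neither (adjusted p = 0.195 for both).

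Tcf7l2, the family member best known from the gut and the pancreas, had 5.71, 11.6 and 18.2 normalized CPM in WT and 35.7, 51.7 and 30.5 in TCF-1 cKO libraries, all of the latter above all of the former. Its log2 fold change was 1.73 (SE 0.58, adjusted p = 0.223 by edgeR). DESeq2 called Tcf7l2 at 1.67 (adjusted p = 0.0766), and limma-voom did not (adjusted p = 0.195). Tcf7l1 had 0.357, 6.70 and 4.60 against 8.52, 11.2 and 3.24 normalized CPM, and the groups overlapped (log2 fold change 0.97, SE 1.04, adjusted p = 0.606 by edgeR).

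Of the corepressor genes, Tle3 had 56.3, 96.4 and 83.7 normalized CPM in WT and 34.1, 24.7 and 50.5 in TCF-1 cKO libraries. The log2 fold change of Tle3 was -1.11 (SE 0.47, adjusted p = 0.262 by edgeR). Without TCF-1 cKO pre-transplant replicate 3, where far more genes passed in all, Tle3 passed at -1.57 (adjusted p = 0.0695 by edgeR). Tle1 and Tle4, which encode proteins of the same family, overlapped between genotypes, at log2 fold changes of -0.06 and -0.31, and the GC content and length offset moved Tle4 to -1.12 (adjusted p = 0.191). Ctnnb1 ranged from 83.2 to 212 normalized CPM in WT and from 73.5 to 114 in TCF-1 cKO libraries (log2 fold change -0.81, SE 0.46, adjusted p = 0.355 by edgeR). Axin2, with at most 6.75 normalized CPM in any of these libraries, showed a log2 fold change of -0.02 with an interval from -2.33 to 2.28, which includes changes of several fold either way.

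The CD3 chains mark the T cells of a library, and they too differed between genotypes before transplant. Cd3d, Cd3e and Cd3g together had 635, 705 and 640 CPM in WT and 290, 258 and 324 CPM in TCF-1 cKO libraries. Counted per 100 CD3 counts, Tcf7 stood at 23.9, 16.2 and 31.9 in WT and at 19.5, 30.4 and 29.8 in TCF-1 cKO libraries. These ranges overlapped and the exact permutation test gave p = 0.7. Lef1 stood at 29.3, 31.4 and 34.7 against 31.2, 39.3 and 26.7 per 100 CD3 counts, again with overlap (exact permutation test, p = 1). Tcf7l2 remained apart on this scale, at 0.785, 1.61 and 2.32 against 14.4, 23.7 and 9.40 per 100 CD3 counts (exact permutation test, p = 0.1, the smallest that 3 against 3 libraries allow). Tcf7l1, Tle4 and Ctnnb1 were higher without overlap on it as well, at 6.11, 2.42 and 1.68 times the WT mean (exact permutation test, p = 0.1 each). Higher was the common direction on a CD3 scale. A refit of all genes on it had a median log2 fold change of 1.59, with Ctnnb1 below that at 0.75. The share of all genes without overlap on this scale is not given here. Taken against each CD3 chain alone, Tcf7 and Lef1 overlapped and Tcf7l2 was higher without overlap in all 3 cases.

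Refitting all genes with libraries scaled to CD3, a choice made after the marker levels were seen, moved the median of all genes to 1.59 on the log2 scale, with 8518 genes higher and 32 lower past the FDR, and changes on that scale are relative to it. The pre-transplant log2 fold change of Tcf7 became 0.15 (adjusted p = 0.774) and that of Lef1 0.03 (adjusted p = 0.957). Tcf7l2 reached 3.33 (adjusted p = 0.00697), and Tcf7l1 at 2.60 (adjusted p = 0.0912) and Tle4 at 1.27 (adjusted p = 0.0911) also passed, the latter below the median of all genes. The lower Tcf7 and Lef1 of the TCF-1 cKO pre-transplant libraries was therefore seen relative to total RNA and not relative to CD3 transcripts. This holds for CD3 only, which CD4 T cells express as well. Before transplant Cd8b1 had 327 to 392 CPM in WT and 228 to 239 CPM in TCF-1 cKO libraries. Cd8a had 131 to 199 against 47.5 to 65.9 CPM. Ratios to Cd8a and Cd8b1 are not given here, so no direction per CD8 T cell transcript is stated.

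**Figure D2:**
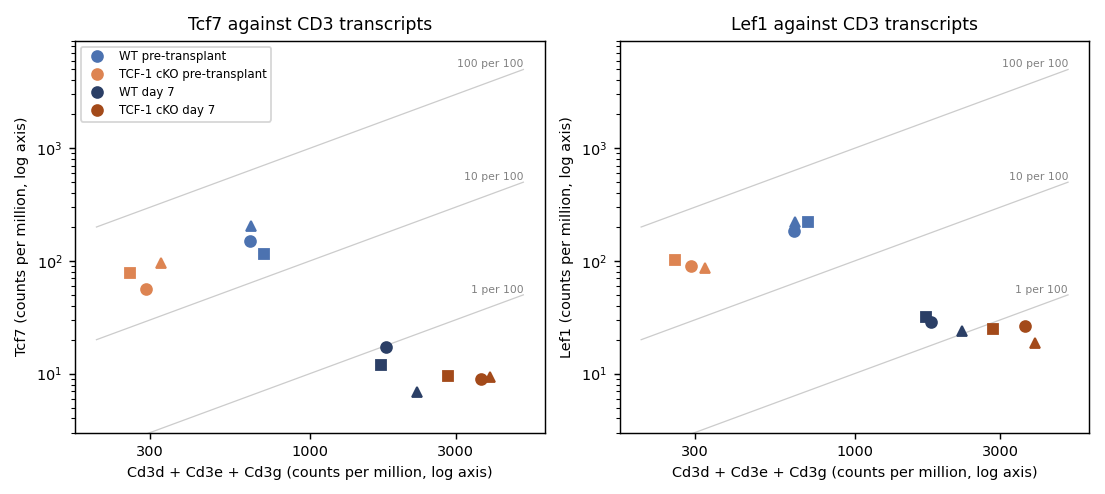
Tcf7 (left) and Lef1 (right) in CPM against the summed CPM of Cd3d, Cd3e and Cd3g, both axes logarithmic; each symbol is a library, its shape the replicate as in the plot of levels, and the grey lines mark constant numbers of counts per 100 CD3 counts. WT and TCF-1 cKO pre-transplant libraries lie along the same diagonal (16.2 to 31.9 per 100 for Tcf7), and all day 7 libraries lie at or below 1.85 per 100 for both genes.

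At day 7, 1 of the 8 genes tested passed between TCF-1 cKO and WT, against 17.9% of all 16026 genes, and Axin2 was too low to be tested, at 1 to 13 counts in a library. Tle3 (56.6% GC) fell, from 34.4, 58.0 and 12.5 normalized CPM in WT to 6.25, 4.05 and 2.77 in TCF-1 cKO libraries. All TCF-1 cKO values were below all WT values, and the log2 fold change was -3.0 (SE 0.68, adjusted p = 0.0448 by edgeR). Log2 fold changes at day 7 followed the GC content of genes, with Spearman's rho of -0.551 (a value across genes, whose levels depend on each other), and the genes within 1 percentage point of Tle3 in GC content had a median of -1.99. With an offset for GC content and length Tle3 was at -1.42 and no longer passed (adjusted p = 0.113). The call was also lost on leaving out any 1 of the 3 TCF-1 cKO libraries or WT replicate 1 or 2 (log2 fold changes -3.48 to -2.47, adjusted p = 0.109 to 0.178), and only without the library labelled WT day 7 replicate 3 was it kept (-3.45, adjusted p = 0.00353).

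Tle4 (45.4% GC) was the other gene without overlap at day 7, where 39.3% of all genes showed none. It had 5.96, 12.8 and 6.41 normalized CPM in WT and 4.20, 5.50 and 2.71 in TCF-1 cKO libraries, a log2 fold change of -1.02 (SE 0.54, adjusted p = 0.257 by edgeR). Genes within 1 percentage point of Tle4 in GC content had a median of 0.66, on the other side of 0, and with the GC content and length offset Tle4 was at -2.08 (adjusted p = 0.130). Tle1 was at -1.03 (SE 0.64, adjusted p = 0.322 by edgeR) with overlapping groups.

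Tcf7 at day 7 had 20.6, 18.0 and 6.12 normalized CPM in WT and 7.62, 8.40 and 7.81 in TCF-1 cKO libraries. WT replicates 1 and 2 were high and the library labelled WT day 7 replicate 3 was the lowest of all 6, and the log2 fold change was -0.91 (SE 0.55, adjusted p = 0.308 by edgeR). Without that library it was -1.33 and passed (adjusted p = 0.0747). The GC content and length offset turned its direction, to 0.28 (adjusted p = 0.717), with 54.8% GC in the gene and a median of -1.20 among genes of like GC content. Lef1, at 34.4, 47.6 and 21.4 against 22.4, 22.1 and 15.7 normalized CPM, had a log2 fold change of -0.78 (SE 0.48, adjusted p = 0.313 by edgeR). Per 100 CD3 counts Lef1 stood at 1.61, 1.85 and 1.07 in WT and at 0.726, 0.879 and 0.479 in TCF-1 cKO libraries, without overlap (exact permutation test, p = 0.1, the smallest possible), while the CD3 sum was higher in TCF-1 cKO libraries at 2838 to 3887 CPM against 1713 to 2244 CPM. The 3 chains did not move together, with Cd3g at 1509 to 2340 against 148 to 1107 CPM and Cd3d at 1225 to 1470 against 771 to 938 CPM, but Cd3e at 101 to 119 in TCF-1 cKO against 199 to 794 CPM in WT libraries. Against Cd3e alone Lef1 turned to the other direction, at 18.3 to 23.9 per 100 Cd3e counts in TCF-1 cKO and 3.99 to 12.1 in WT libraries, so no direction of Lef1 per T cell transcript can be given at day 7. Cd8a and Trac overlapped between the genotypes at day 7, at 330 to 474 against 307 to 420 CPM and 261 to 291 against 235 to 410 CPM.

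Ctnnb1 at day 7 had 81.2, 7.03 and 45.3 normalized CPM in WT and 32.4, 42.7 and 37.0 in TCF-1 cKO libraries. WT replicate 2 was far below the rest, and the log2 fold change of -0.25 had an interval from -1.75 to 1.25. Tcf7l2, at 1.36 to 2.08 against 1.40 to 1.96 normalized CPM, had a log2 fold change of 0.03 with an interval from -1.15 to 1.2. Tcf7l1 ranged from 0.294 to 5.16 in WT and from 0.627 to 1.47 normalized CPM in TCF-1 cKO libraries.

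**Figure D3:**
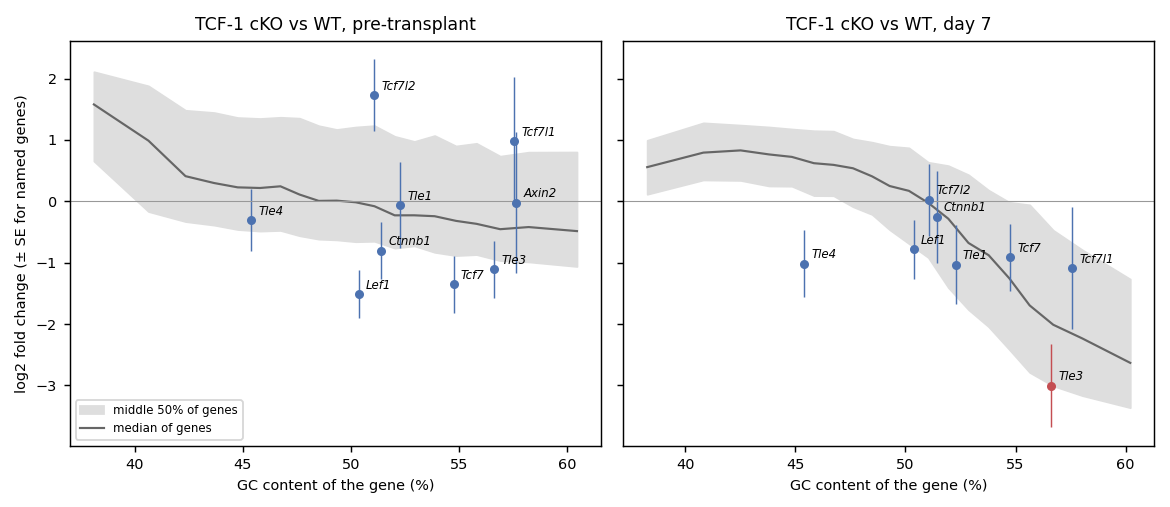
Log2 fold change of TCF-1 cKO against WT (vertical axis) by the GC content of the gene in percent (horizontal axis), before transplant (left) and at day 7 (right); the grey line and band are the median and the middle 50% of all genes tested, and points with SE bars are the 9 genes (8 at day 7), red where the FDR was below 0.1. At day 7 the median of all genes falls from above 0 to below -2 as GC content rises, Tle3 lies at -3.0 where like genes are at -1.99, and Tle4 lies at -1.02 where like genes are at 0.66.

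From before transplant to day 7, both Tcf7 and Lef1 fell in WT libraries. In this comparison 2 of 9 genes passed, both lower, where 20% of 16790 genes passed and 10.3% passed as lower. Tcf7 fell by 2.71 on the log2 scale (SE 0.61, adjusted p = 0.0172 by edgeR) and Lef1 fell by 1.88 (SE 0.50, adjusted p = 0.0313 by edgeR), relative to a median of all genes of -0.30. Tcf7 passed under all alternatives run for this comparison, single libraries left out included. The call of Lef1 was lost with the GC content and length offset (-0.93, adjusted p = 0.208) and without WT day 7 replicate 1 (adjusted p = 0.197), WT pre-transplant replicate 1 (adjusted p = 0.109) or WT pre-transplant replicate 3 (adjusted p = 0.15). Tcf7l2 and Tle4 were also lower without overlap, which makes 4 of 9 genes where 20.3% of all genes were lower without overlap, at -1.96 (adjusted p = 0.136) and -1.02 (adjusted p = 0.306).

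Tle3 in WT cells was at -0.29 with an interval from -1.50 to 0.92 and Ctnnb1 at -0.98 with an interval from -2.54 to 0.58. Axin2 was at -2.86 (SE 1.33, adjusted p = 0.188 by edgeR), from 0.339 to 2.89 TPM before transplant to at most 0.0839 TPM at day 7. In normalized CPM the Axin2 groups overlapped, at 0.281 to 4.26 before transplant and 0.0607 to 0.562 at day 7. Axin2 rests on few counts at both stages, with 9 in WT pre-transplant replicate 3 and 13 in WT day 7 replicate 1. Tcf7l1 was at 0.05 and its groups overlapped.

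The same stages in TCF-1 cKO libraries gave 3 of 9 genes that passed, all lower, where 36.6% of 18535 genes passed and 16.8% passed as lower. Tcf7l2 fell by 2.90 on the log2 scale (SE 0.47, adjusted p = 0.00180 by edgeR), from 22.4, 30.9 and 22.2 to 4.26, 2.59 and 3.23 normalized CPM, and the call was kept in all alternatives run for it. Tcf7 fell by 1.54 (SE 0.43, adjusted p = 0.0257 by edgeR), from 30.1, 39.5 and 70.5 to 16.6, 15.5 and 16 normalized CPM. It was at -0.98 (adjusted p = 0.0707) without TCF-1 cKO pre-transplant replicate 3 and at -0.88 (adjusted p = 0.0698) with the GC content and length offset. Tle3 fell by 1.45 (SE 0.54, adjusted p = 0.0717 by edgeR), and its call was lost with the GC content and length offset (-0.34, adjusted p = 0.603), with counts scaled from TPM (adjusted p = 0.203) and without any 1 of TCF-1 cKO day 7 replicates 2 and 3 or pre-transplant replicates 1 and 3 (adjusted p = 0.129 to 0.233).

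Lef1 in TCF-1 cKO libraries had 48.3, 51.1 and 63.2 normalized CPM before transplant and 48.6, 41.0 and 32.1 at day 7, with overlap at a log2 fold change of -0.42 (SE 0.36, adjusted p = 0.417 by edgeR). Tle4 and Axin2 were lower without overlap at -0.99 and -2.10, so that 5 of 9 genes were lower without overlap where 24% of all genes were. Ctnnb1 was at 0.27 with an interval from -0.42 to 0.97. In TPM, which shares a fixed total among all genes, all 9 genes had lower means at day 7 than before transplant in both genotypes. The share of all genes with a lower mean TPM is not given here, so this count is not read as a trait of the group. The normalized CPM of Ctnnb1 in TCF-1 cKO libraries and of Tcf7l1 in WT libraries (log2 fold change 0.05) did not fall.

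Set against the CD3 sum, Tcf7 was at 0.963, 0.701 and 0.306 per 100 CD3 counts in WT and 0.247, 0.333 and 0.239 in TCF-1 cKO libraries at day 7. The mean before transplant was 36.5 times that at day 7 in WT and 97.2 times in TCF-1 cKO libraries. Lef1 had 21.0 and 46.6 times its day 7 mean before transplant. Falls on this scale were not particular to Tcf7 and Lef1. The CD3 sum itself rose, from at most 705 CPM before transplant to at least 1713 CPM at day 7. In TCF-1 cKO libraries every gene of the group was lower without overlap, among them Tcf7l2 (284 times), Axin2 (151 times) and Ctnnb1 (29.0 times). In WT libraries all but Tcf7l1 were. The share of all genes is not given here. For Tcf7 and Lef1 the size depends on the chain, and in TCF-1 cKO libraries more than in WT. Against Cd3e alone the Tcf7 ratio was 26.3 times in WT and 12 times in TCF-1 cKO libraries, and against Cd3g alone 21.1 and 181 times, so the order of the genotypes turned with the chain. For Lef1 these ratios were 13.6 and 5.98 times against Cd3e and 11.9 and 83.5 times against Cd3g. For Tcf7 and Lef1 the groups did not overlap with the sum or any single chain. For both, p = 0.1 in the exact permutation test is the smallest that 3 against 3 libraries allow.

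The change of the genotype difference from pre-transplant to day 7 did not pass for any of the 9 genes, as an interaction over all 12 libraries, where 1 of 21526 genes passed (0.00465%). No member had an unadjusted p below 0.05 or was called by DESeq2 or limma-voom. The nearest was Lef1 at 1.22 on the log2 scale (SE 0.60, adjusted p = 0.330 by edgeR), and Tle3 was at -1.40 (SE 0.81, adjusted p = 0.4 by edgeR). The 4 comparisons share libraries, so their values are set side by side only.

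**Figure D4:**
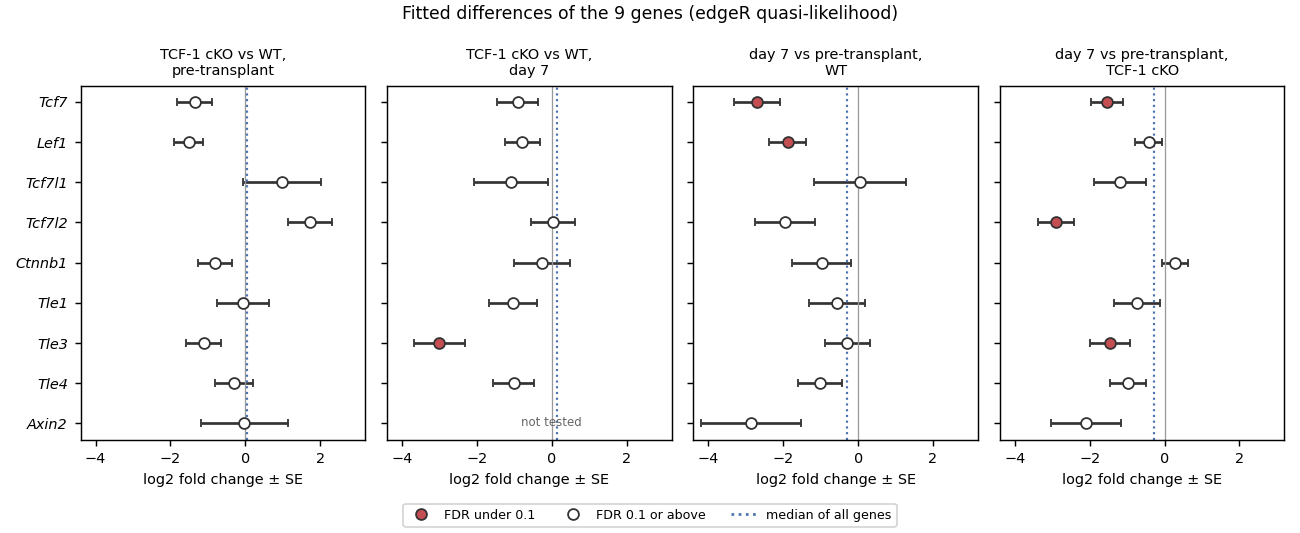
Log2 fold changes with SE (horizontal axes) of the 9 genes in the 4 comparisons named above the panels; red points have an FDR below 0.1 and the dotted line is the median of all genes tested. Filled points are Tle3 at day 7 (-3.0), Tcf7 and Lef1 across stages in WT (-2.71 and -1.88), and Tcf7, Tcf7l2 and Tle3 across stages in TCF-1 cKO (-1.54, -2.90 and -1.45).

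The reads of several genes were divided among transcripts of different kinds. Tcf7l2 has 22 transcripts in the files, 12 of them protein-coding, yet in TCF-1 cKO pre-transplant libraries the protein-coding ones held only 7.20% to 38.0% of its TPM. Tcf7l2-204, a 982-base transcript annotated as a retained intron, had 27.2, 34.3 and 5.28 TPM there against 0.537, 0.926 and 1.06 TPM in WT pre-transplant libraries. The protein-coding transcripts of Tcf7l2 had 2.99, 4.13 and 8.58 TPM in TCF-1 cKO and 0.715, 1.54 and 4.32 TPM in WT libraries, and these ranges overlapped. The difference in Tcf7l2 TPM between genotypes thus lay largely in a transcript model with no coding sequence, which shares exons with coding ones.

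Ctnnb1 was divided in a like way at day 7. Ctnnb1-215, a retained intron of 1 exon (chromosome 9, 120959216 to 120960507), held 60.5% to 83.2% of the Ctnnb1 TPM in TCF-1 cKO and 23.3% to 85.6% in WT day 7 libraries. Protein-coding Ctnnb1 transcripts had 16.2, 0.186 and 6.21 TPM in WT and 3.44, 6.04 and 3.44 TPM in TCF-1 cKO libraries, so the low value of WT replicate 2 was most marked in them. For Tle3, coding transcripts held 25.9% to 74.8% of the TPM in TCF-1 cKO day 7 libraries against 88.1% to 99.2% in WT day 7 libraries, without overlap.

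Lef1 reads came from both starts printed above. Lef1-201 (3482 bases, 1191 coding) begins near the upstream start and Lef1-203 (2298 bases, 993 coding) near the downstream one, and the shorter protein lacks the N-terminal part, where LEF-1 binds β-catenin. Of the protein-coding Lef1 TPM, Lef1-203 held 46.4%, 5.25% and 47.2% in WT and 40.2%, 17.9% and 43.6% in TCF-1 cKO pre-transplant libraries. Replicate 2 was lowest in both groups and the genotypes overlapped (exact permutation test, p = 1). At day 7 it held 53.4%, 20.3% and 76.2% in WT and 58.6%, 67.5% and 55.8% in TCF-1 cKO libraries (exact permutation test, p = 0.7). Within TCF-1 cKO all day 7 shares were above all pre-transplant shares (exact permutation test, p = 0.1, the smallest possible). The protein-coding Lef1 level before transplant was 59.2, 60.5 and 73.8 TPM in WT and 22.1, 22.4 and 22.1 TPM in TCF-1 cKO libraries, apart as for the whole gene.

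**Figure D5:**
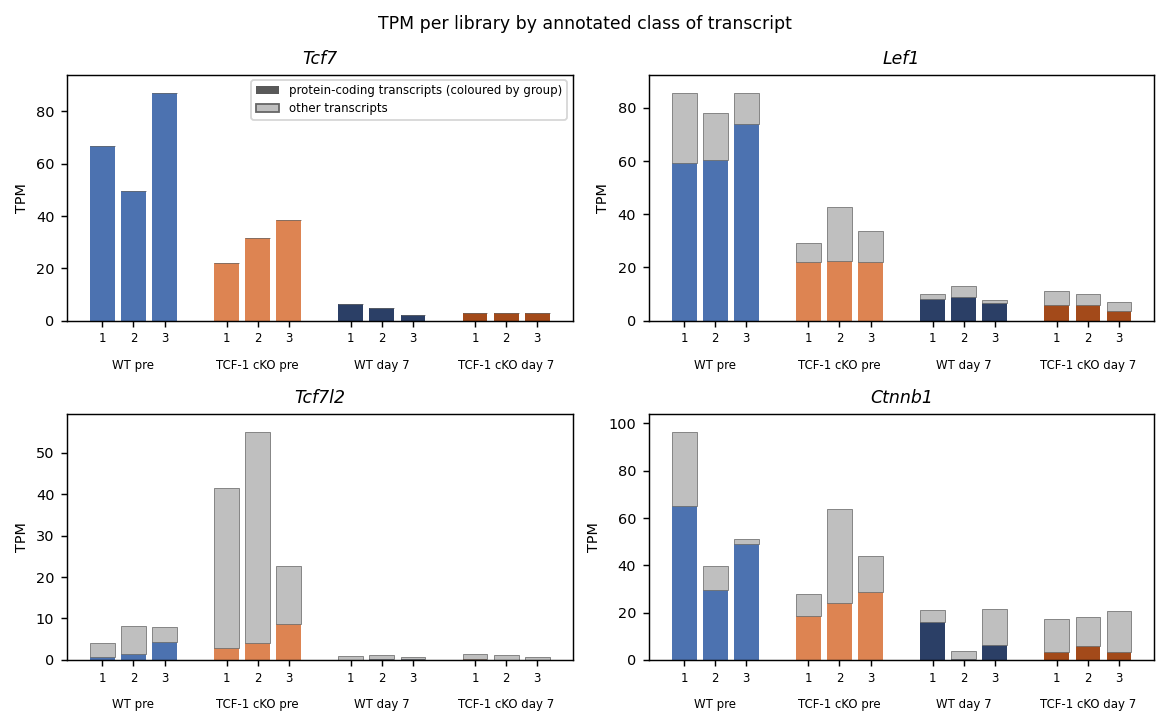
TPM (vertical axes, from 0) of Tcf7, Lef1, Tcf7l2 and Ctnnb1 in each library, stacked as protein-coding transcripts (coloured by group) and all other transcripts (grey); numbers under the bars are replicates. Tcf7 is wholly protein-coding, while most Tcf7l2 of the TCF-1 cKO pre-transplant libraries is grey, with a coding share of 7.20%, 7.51% and 38.0%.

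The wider Wnt/β-catenin pathway was followed with a list of 101 further genes by role, of which 85 were tested before transplant. None passed between TCF-1 cKO and WT before transplant by edgeR or limma-voom, and 16 had an unadjusted p below 0.05 beside 17.7% of all genes. DESeq2 called 3 beside 7.74% of all genes. Without TCF-1 cKO pre-transplant replicate 3, 9 of the list passed. The count over all genes rose as well in that setting, and its share is not given here. The median log2 fold change of the list was 0.4 against 0.05 for all genes. At day 7, 1 of 60 tested was higher and 10 were lower, beside 2.51% and 15.4% of all genes, at a list median of 0.09 against 0.15. By role, 3 of 11 coactivators, 3 of 8 other corepressors and repressors, 2 of 16 destruction complex genes, 1 of 3 Dishevelled genes and 1 of 1 common target were lower, while none of 2 ligands, 10 receptor and secretion genes and 9 inhibitors passed. Hic1, a zinc finger repressor that binds TCF factors, fell by 3.39 on the log2 scale, Pygo2, which links β-catenin to chromatin, fell by 4.44, Aes, a short Groucho protein, fell by 3.73, and Ppp2r1a, the scaffold of protein phosphatase PP2A, fell by 3.64, each at an adjusted p of 0.0448 (edgeR). The target Myc fell by 3.01 (adjusted p = 0.0448), and Skp1a, a subunit of the SCF ubiquitin ligase, was the 1 that rose, and both are named after their values were seen. Skp1a rose by 1.61 (adjusted p = 0.0939). With the offset for GC content and length, as for Tle3, fewer genes passed at day 7, 829 in all against 2868, and 3 of the list against 11. Leaving out any library but the one labelled WT day 7 replicate 3 left 0 of the list, and leaving that one out gave 13. The count over all genes was also highest without that library, and its share is not given here.

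Across stages, 3 of 68 genes of the list were higher and 10 lower at day 7 in WT, beside 9.7% and 10.3% of all genes, at a list median of -0.90 against -0.30 for all genes. Of 11 coactivators 5 were lower, among them the acetyltransferase genes Crebbp at -2.76 (adjusted p = 0.00757) and Ep300 at -2.63 (adjusted p = 0.0136), and none was higher. Also lower were 2 of 13 receptor and secretion genes, 1 of 4 ligands and 1 of 16 destruction complex genes. So was 1 of 2 common targets. Higher were 2 of 8 other corepressors and repressors and 1 of 11 inhibitors, and none of 3 Dishevelled genes passed. With 1 library left out 5 to 16 genes of the list passed, the fewest without WT day 7 replicate 1 or WT pre-transplant replicate 3. The share of all genes in these settings is not given here. The ligand Wnt10a was at -7.94 (adjusted p = 0.00669) and Hic1 rose by 4.50 (adjusted p = 0.0134). In TCF-1 cKO libraries 7 of 80 were higher and 16 lower, beside 19.8% and 16.8% of all genes, at a median of -0.89 against -0.29. Lower were 6 of 11 coactivators, 3 of 16 receptor and secretion genes, 2 of 8 ligands and 2 of 3 Dishevelled genes. So were 1 of 9 other corepressors and repressors, 1 of 15 inhibitors and 1 of 2 common targets. Higher were 3 of 16 destruction complex genes, 3 of 9 other corepressors and repressors and 1 of 15 inhibitors. Hdac1, a histone deacetylase recruited by Groucho proteins, rose by 3.33 (adjusted p = 0.000301), Skp1a by 3.05 (adjusted p = 0.000734) and Ppp2cb, a catalytic subunit of PP2A, by 2.76 (adjusted p = 0.00338), while Znrf3, a ubiquitin ligase that removes Wnt receptors, was at -3.14 (adjusted p = 0.00216). The interaction passed for none of 93 genes of the list by edgeR or limma-voom, with 10 at an unadjusted p below 0.05 and 5 called by DESeq2, beside 15.7% and 7.96% of all genes.

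The genes whose levels were most like that of Tcf7 over the 12 libraries, by Pearson's r of log2(normalized CPM + 1), were Sec16a (0.968), Pfkfb3 (0.967), Akap13 (0.962), Tgfbr2 (0.959) and Cyp4f16 (0.959). For Lef1 they were Actn1 (0.948), Samd4b (0.939), Supt6 (0.935), Ccdc88c (0.933) and Gm9025 (0.931), and r between Tcf7 and Lef1 was 0.907. These values describe likeness only, since the libraries form separate groups by stage that share their cell makeup and depth, and no p is given.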

How the data were processed

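RNA-seq was done on sorted CD8 T cells of 12 spleen samples, and samples were grouped by genotype and stage in their titles. Per the labels and methods, RNA was made into cDNA with SMART-Seq HT and libraries with Nextera XT. The authors pseudoaligned paired-end reads with kallisto 0.46.2 and deposited, for each of 117497 transcripts, an estimated count, which is not scaled, and a TPM value, which is scaled for effective length and depth. The submitters' processing notes name the mm9 build, and the transcript release is not given in the sources used here. The study states that its WT libraries also served other publications.

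Transcripts were joined without version to GENCODE M21 (GRCm38), which gave a gene to 116374 transcripts. Gene counts are sums of estimated counts, rounded to whole numbers. A division of reads among transcripts is kallisto's estimate. Totals of 4520270 to 32657005 per library set a floor of 3 counts at 0.0919 to 0.664 CPM, which covers counting error only. Comparisons used edgeR 4.0.16 (TMM, filterByExpr, quasi-likelihood test, Benjamini-Hochberg adjustment over all genes tested, FDR 0.1 as in the study), on 2 groups at a time, with an interaction over all 12 libraries. Standard errors come from the log2 fold change and F. Normalized CPM values are those of the comparison beside which they stand. Two-sided exact permutation tests of TPM, CD3 ratios and transcript shares cannot go below 0.1, and over the 36 tests of the 9 genes' TPM the smallest adjusted value was 0.171. The methods were tested on simulated data.

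The text names all 9 genes, the Tcf7 transcripts and those transcripts described as classes. Of the Wnt list it names up to 4 genes per comparison with the smallest p past the FDR. At day 7 between genotypes Myc and Skp1a are named as well, chosen after their values were seen. Also named are the 5 genes most like Tcf7 and Lef1, the CD3 chains, Trac, Cd4, Cd8a and Cd8b1. The genes and lists were chosen with earlier results of these data known. Alternatives were the DESeq2 1.42.0 Wald test, limma 3.58.1 voom, DESeq2 size factors, no filter, counts scaled from TPM, a GC content and length offset (loess, span 0.4, degree 2), a replicate block with and without it, thinning to the smallest library, leaving out each library, and, chosen after seeing the data, scaling to CD3 for the 2 genotype comparisons and ratios to single CD3 chains. Tests ran in R 4.3.3, and tables and permutations in Python 3.11.15 (SciPy 1.17.1, pandas 2.3.3). Flow cytometry and protein data were not analysed here.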

Additional observations from a re-analysis of the deposited data

How the results depend on the processing

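Of 710 alternative values of single genes, 621 kept their direction and their side of the threshold, 21 lost and 13 gained the call, and 55 changed direction, mostly around log2 fold changes near 0. The cause was not tested for any of them. Between genotypes before transplant, edgeR called 7 genes and none of the 9, and the counts moved with the tool. DESeq2 called 1451 genes and 3 of the 9, limma-voom 2 genes, DESeq2 size factors 3, the unfiltered fit 619 and 1 of the 9, counts scaled from TPM 0, the GC content and length offset 13, thinning 2, and CD3 scaling 8550 and 3 of the 9. Leaving out 1 library gave 0 to 2738 genes and 0 to 3 of the 9, the highest without TCF-1 cKO pre-transplant replicate 3. At day 7, where 2868 genes and 1 of the 9 passed, DESeq2 called 4524 genes and the offset 829 with 0 of the 9, and leaving out 1 library gave 0 to 5300 genes and 0 to 2 of the 9, the highest without the library labelled WT day 7 replicate 3. Between stages in WT, 3362 genes and 2 of the 9 passed, the offset left 1 of the 9, and leaving out 1 library gave 1579 to 4156 genes and 1 to 2 of the 9, the lowest count of genes without WT pre-transplant replicate 3. The interaction, with 1 gene called, gave 1713 by DESeq2, 580 unfiltered, 2 by counts scaled from TPM or with the offset, and 0 to 2093 with 1 library left out, the highest without the library labelled WT day 7 replicate 3. Between stages in TCF-1 cKO, counts of genes stayed within 1.5 times of 6776. The offset moved the median log2 fold change of all genes to -0.33 before transplant, -0.13 at day 7 and 0.11 between stages in WT, and CD3 scaling moved it to -0.26 at day 7. Depth limits the TCF-1 cKO pre-transplant libraries most, and Axin2 and Tcf7l1 had at most 126 and 125 counts in any library.

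Among single genes before transplant, Axin2 turned to 0.76 (limma-voom), 0.19 (counts scaled from TPM), 0.20 (offset) and 0.11 (thinning) and ranged from -0.66 to 1.37 with 1 library left out, and Tle1 turned to 0.38 (thinning) and ranged from -0.31 to 0.31. Under CD3 scaling, where the median of all genes was 1.59, Tcf7 turned to 0.15, Lef1 to 0.026, Ctnnb1 to 0.75, Tle1 to 1.52, Tle3 to 0.36, Tle4 to 1.27 and Axin2 to 1.39. At day 7 Tcf7l2 turned to -0.062 (DESeq2), -0.065 (its size factors), -0.093 (unfiltered) and -0.36 (CD3 scaling) and ranged from -0.24 to 0.21 with 1 library left out, Ctnnb1 turned to 0.30 (limma-voom), 0.23 (counts scaled from TPM) and 0.044 (offset) and ranged from -0.80 to 0.42, Tcf7l1 turned to 0.77 (counts scaled from TPM) and 0.86 (offset) and ranged from -1.76 to 0.51, and Tcf7 turned to 0.28 (offset). Between stages in WT, Tcf7l1 turned to -0.17 (counts scaled from TPM), -0.29 (offset) and -0.093 (thinning) and ranged from -1.17 to 0.87, Tle4 turned to 0.23 (offset), and Tle3 ranged from -0.66 to 0.29 with 1 library left out. In TCF-1 cKO Tcf7l1 turned to 0.25 (counts scaled from TPM). In the interaction, Tcf7l1 turned to 0.086 and Tle1 to 0.25 (counts scaled from TPM), and with 1 library left out Axin2 ranged from -0.79 to 1.84 and Tle4 from -0.48 to 0.19.

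Replicate numbers are shared between groups. Libraries of the same number deviated together by over 0.1 in only some pairs (correlations of -0.134 to 0.165 over the 4 comparisons), in no comparison in all 3 pairs. The main tests therefore did not pair libraries by number, though correlations this weak cannot exclude a pairing. A replicate block called 0 genes before transplant (12 with the GC content and length offset), 2036 at day 7 (2 with the offset, and 0 of the 9 genes), 3097 between stages in WT (1 of the 9 with the offset) and 5478 in TCF-1 cKO (2 of the 9, with Tle3 lost at an adjusted p of 0.139, and 1 with the offset, with Tcf7 lost as well at -0.86 and an adjusted p of 0.147), and 0 in the interaction with or without the offset. With the block Axin2 before transplant turned to 0.49 (0.65 with the offset) and Ctnnb1 at day 7 to 0.23 (0.48 with the offset). With block and offset Tcf7 at day 7 turned to 0.32, Tcf7l1 at day 7 to 1.32, Tcf7l1 in WT to -0.27 and Tle1 in WT to 0.081. At day 7, though in no other comparison, each library correlated best with the one of its own number, which is a hint from the data and not from the design.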
